A study of Rattus norvegicus with 415 samples.

Results

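The skeletal muscle gene Acta1 and the 100 genes that followed it most closely from sample to sample were measured in the adipose tissue of outbred rats (Rattus norvegicus). They were taken from the 16131 genes kept by a filter on low values, of the 18358 genes in the table. They were chosen by Pearson's r with Acta1 (ENSRNOG00000017786) on the log2(FPKM + 1) scale over all samples, among genes that exceeded 1 FPKM in 20% or more of the samples. FPKM is the number of reads divided by gene length and by library depth, here after a scaling between samples. All r values with Acta1, and every measure of how the genes moved together, were used by this choice or follow from it, and they are given as a description with no test.

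The series sequenced RNA of adipose tissue taken at an age of 17 weeks, in a study that mapped metabolic traits to the genome and asked which genes with locally mapped expression lie behind them. The labels gave all samples 1 tissue and 1 age, with no treatment, sex or fat depot, and called the source adipose cells although the protocol names dissected and frozen tissue. Each title held a number and a suffix that the labels do not explain. There were 89 numbers that stood on more than 1 sample, and the numbering fell into 3 blocks at its gaps above 500, from 57215 to 59114 (39 samples), from 60213 to 63056 and from 63906 to 64305. No file gives a gene name for an identifier, and the reference table matched 0 of the identifiers, so only Acta1 and Ckm carry a name here, as the rule for the list gives them. Whether the other 99 genes of the list are muscle genes could not be checked. Marker genes of fat, heart, smooth muscle, brown fat and other tissues could not be looked up for the same reason.

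Acta1 encodes the actin of the thin filaments in skeletal muscle fibres, the filaments that slide along myosin when a fibre contracts. Ckm (ENSRNOG00000016837) encodes the muscle creatine kinase, which regenerates ATP from phosphocreatine beside the contractile filaments. Both are among the most abundant transcripts of skeletal muscle, and the heart also makes them. White adipocytes do not build sarcomeres, and some fat depots lie directly on skeletal muscle. In a bulk sample, a higher level of these genes from more muscle fibres in the piece of tissue and one from more RNA per cell cannot be told apart.

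The upstream sequences of both named genes are shown because the genes moved together. They come from RefSeq on the GRCr8 build, where both symbols were found. The build behind the deposited values is not given in the sources used here, so the stretches serve as sequence context and were not joined to the values by coordinates. Capitals mark matches to the motifs searched on both strands, which were the E-box (CANNTG), the TATA box (TATAAA), the M-CAT element (CATTCC), the CArG box and the MEF2 site.

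Acta1 promoter: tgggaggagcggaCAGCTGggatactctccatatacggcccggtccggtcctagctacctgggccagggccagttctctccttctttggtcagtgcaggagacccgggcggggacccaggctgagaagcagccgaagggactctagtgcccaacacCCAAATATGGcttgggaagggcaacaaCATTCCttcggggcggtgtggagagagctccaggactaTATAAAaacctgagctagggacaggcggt
Ckm promoter: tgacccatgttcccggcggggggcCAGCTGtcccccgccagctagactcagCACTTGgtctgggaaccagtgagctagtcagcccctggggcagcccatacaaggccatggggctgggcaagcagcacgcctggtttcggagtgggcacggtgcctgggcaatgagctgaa

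The Acta1 stretch covers the 250 bases before the start site, at chr19:68784195-68784444 on the minus strand. It holds 1 E-box near its far end and 1 CArG box, the motif bound by serum response factor, 85 to 94 bases before the start. An M-CAT element stands 62 to 67 bases before the start and a TATA box 24 to 29 bases before it. Among all 33469 promoters of the table, windows of the same length held an E-box in 65.5%, a CArG box in 1.5%, an M-CAT element in 12.1% and a TATA box in 12.9%. The Ckm stretch, at chr1:88189211-88189381 on the plus strand, covers the bases 80 to 250 before the start site of the table, up to where the annotated gene begins. It holds 2 E-boxes, the core that myogenic factors such as MyoD bind, and 52.6% of windows of that length held at least 1. A match is a description of the letters, and no MEF2 match says only that its letters are not in these windows.

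Acta1 was low in most samples and high in a minority. Its lowest value was 0 FPKM, in 12 samples, its median was 1.78 FPKM and its highest value was 269.3 FPKM. A count of 0 reads allows up to 3 reads, which is 0.413 to 0.827 FPKM in those 12 samples. The lower quartile was 0.581 FPKM and the upper quartile 23.4 FPKM. Acta1 was above 1 FPKM in 61.7% of samples, above 10 FPKM in 32.3% and above 100 FPKM in 14.5% (60 samples).

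Ckm had the same shape. Its lowest value was 0 FPKM, in 50 samples, its median was 0.706 FPKM and its highest was 183.7 FPKM. It was above 10 FPKM in 26% of samples and above 100 FPKM in 8.43% (35 samples). More samples were at 0 for Ckm than for Acta1, and in both genes a long stretch of high samples followed the low pile.

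**Figure D1:**
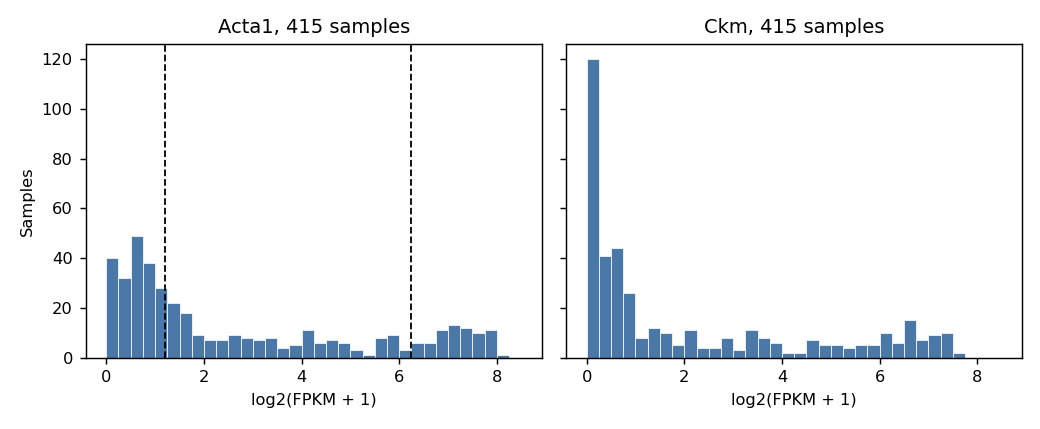
Histograms of log2(FPKM + 1) for Acta1 and Ckm, with the number of samples in each bin. Dashed lines mark the means of the 2 fitted modes of Acta1, 1.21 and 6.24; most samples stand in the low pile and a flat stretch of samples joins it to the high one.

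A mixture of 2 normal distributions with 1 shared variance described the log2 values of Acta1 better than 1 distribution, with a BIC lower by 231.9. The modes had means of 1.21 and 6.24 on the log2(FPKM + 1) scale, which are 1.32 and 74.8 FPKM, and lay 4.65 SDs apart. The upper mode held 30.4% of the samples (95% exact Clopper-Pearson interval 26% to 35%, counting error only) when each sample was given to its likelier mode. Its lowest Acta1 value was 14.3 FPKM and the highest value in the lower mode was 13.7 FPKM. The modes were not separated by a gap, and 25 samples had a probability between 0.1 and 0.9 of belonging to the upper one. The upper mode of Ckm held 26% of samples (exact interval 21.9% to 30.5%). Every one of these samples was also in the upper mode of Acta1, and 18 samples were in the upper mode of Acta1 only.

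The share of samples depended on the definition. With a variance for each mode it was 43.4%, and a mixture fitted to the mean standardised level of the list put 10.6% of samples in the upper mode. All genes of the list had 2 modes by 1 set of criteria (a BIC lower by more than 10, means more than 3 SDs apart and a smaller mode with 5% of samples or more), beside 11.6% of all genes kept; the choice of the list used these values, and nothing is read from that count. In each of these genes the upper mode was the smaller one. Its fitted weight ran from 5.10% to 29.8% with a median of 10.2%, and Acta1 had the largest weight.

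The genes of the list moved largely together. The median Pearson r over their 5050 pairs was 0.85, the lowest was 0.50 and 0 pairs were below 0, beside a median of -0.0025 over all pairs of the 16131 genes. The first principal component of the list held 83.9% of its variance and the second 4.23%. Every gene loaded on the first component with the same sign, from 0.75 to 0.98. Acta1 loaded 0.81 on the first and -0.52 on the second, and Ckm 0.84 and -0.50. On the second component Acta1 and the 12 genes closest to it were all negative. Of the last 50 genes by r, 49 were positive. The list is ordered by r with Acta1, so this grading follows in part from the choice. Pearson's r gives most weight to the samples at the top of the scale. With Spearman's rho, which uses ranks, the median over pairs was 0.47.

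Ckm followed Acta1 most closely, with an r of 0.98 and a rho of 0.89 over all samples. Next came ENSRNOG00000049695, with an r of 0.97, a median of 0.275 FPKM and a highest value of 183.1 FPKM. In all, 12 genes had an r above 0.9, 45 lay between 0.7 and 0.9, and 43 were lower. The r of the last gene on the list, ENSRNOG00000018462, was 0.568, and the first gene left out had 0.566, so that no step in r separated the list from the rest. The median r with Acta1 was 0.72 in the list and -0.0076 over all genes kept, whose 95th percentile was 0.187. Only 3 genes had an r under -0.3, the lowest being -0.373.

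**Figure D2:**
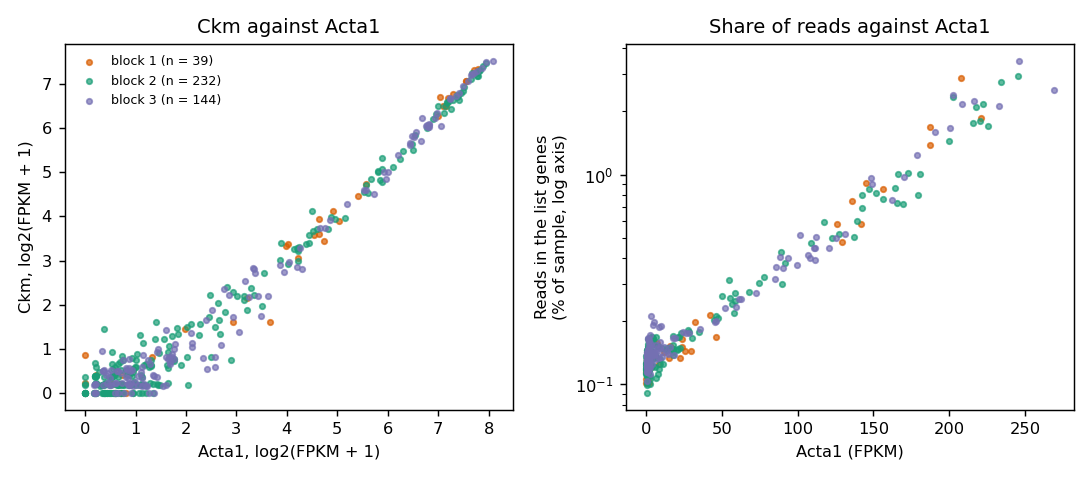
Left, Ckm against Acta1 on the log2(FPKM + 1) scale, and right, the percentage of a sample's reads in the list (log axis) against the Acta1 level in FPKM; each point is 1 sample, coloured by block of title numbers. Ckm tightens around Acta1 as the level rises, and the share of reads, on its log axis, climbs along a nearly straight course to 3.49%.

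In the samples with Acta1 above 10 FPKM, Ckm stood at 0.175 to 0.80 times the Acta1 FPKM, with a median of 0.579. The list took a small share of the reads in most samples. It held 0.0907% of a sample's reads at the lowest, 0.137% at the median and 3.49% at the highest, and more than 1% in 25 samples (6.02%). The sample with the highest share had title number 63966 and suffix 4. It also held the highest value of 87 of the listed genes, and 6 samples held all the maxima between them. In that sample Acta1 was 245.97 FPKM, Ckm 180.8 FPKM and ENSRNOG00000049695 183.1 FPKM. The other sample of the same number, suffix 3, had 0.801 FPKM of Acta1, 0.160 FPKM of Ckm and 0.215 FPKM of ENSRNOG00000049695. Without the first of these samples, the rule gave the same genes.

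**Figure D3:**
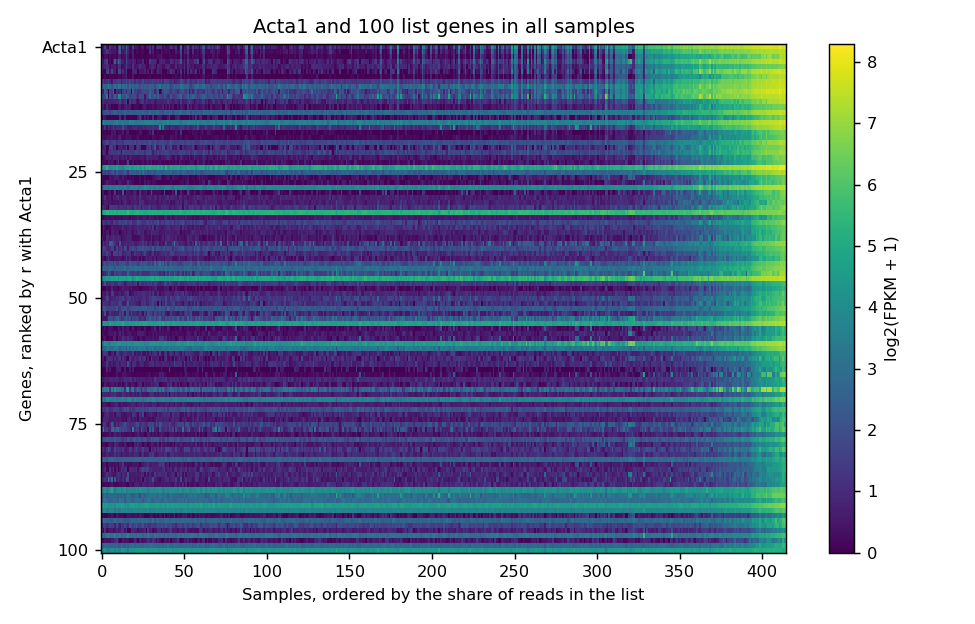
Log2(FPKM + 1) of Acta1 and the 100 other list genes (rows, ranked by r with Acta1) in all samples (columns, ordered by the percentage of reads in the list). The rows brighten together at the right edge, the first rows in more samples than the last ones, and rows that are bright throughout are genes with a level in every sample.

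The members differed in their levels over all samples, which were not split by Acta1 here. The median level was under 1 FPKM in 42 genes, from 1 to 10 FPKM in 47 and at least 10 FPKM in 12. A first kind was near 0 in part of the samples: Ckm had a 5th percentile of 0 FPKM and a 95th percentile of 126.5 FPKM. A second kind had a level in nearly all samples, with a 5th percentile above 1 FPKM in 36 genes. ENSRNOG00000018184 is of the second kind. It ran from 23.8 FPKM at the lowest through a median of 39.9 to 129.4 FPKM at the highest, with an r of 0.79 with Acta1. ENSRNOG00000018462 ran from 8.81 through 19.7 to 39.9 FPKM, the narrowest spread of the list. Its SD on the log2 scale was 0.30, against 2.55 for Acta1, a median of 1.15 in the list and 0.24 over all genes kept. The median r with Acta1 was 0.71 in the 36 genes with a level in nearly all samples and 0.73 in the other 64 besides Acta1.

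The filter decided which genes could be members. Among the 2227 genes that failed it, 69 had an r above that of the last member, up to 0.83. These are genes above 1 FPKM in fewer than 20% of samples. Without the filter, 65 of the genes stayed on the list.

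How far the highest sample stood above the rest differed between the genes. The highest FPKM was 1.26 to 11.6 times the 95th percentile over the list. For Acta1 it was 1.48 times and for Ckm 1.45 times, at up to 1.09 and 0.829 reads per bp of gene. The highest read density of any gene of the table in any sample was 1.60 reads per bp. The median ratio was 1.80 in the 22 list genes that reached more than 0.8 reads per bp. It was 4.72 in the 51 list genes that reached at most 0.5. How read density bears on the highest levels was not tested. For ENSRNOG00000058068, with a gene length of 28192 bp and up to 0.412 reads per bp, the highest value of 93.2 FPKM was 5.44 times the 95th percentile. The lowest ratio, 1.26, belonged to ENSRNOG00000018462, which had only up to 0.177 reads per bp. In the plot of this ratio against read density, both axes hold the 95th percentile, so its slope is no test of a relation.

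**Figure D4:**
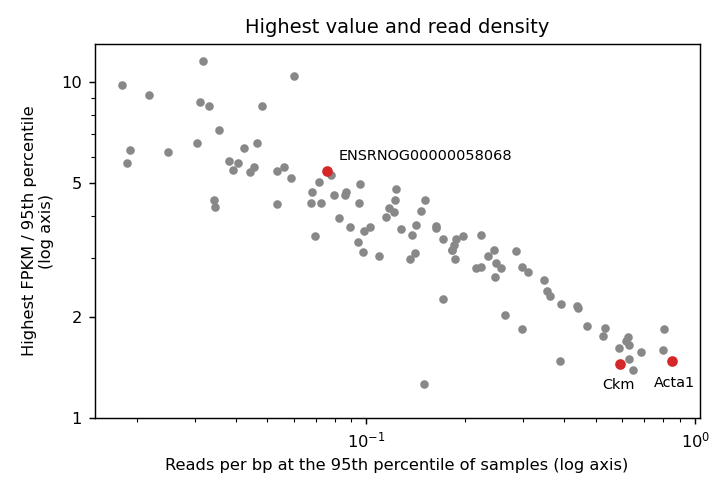
Highest FPKM over the 95th percentile of FPKM (log axis) against reads per bp at the 95th percentile of samples (log axis), with 1 point for each gene of the list. Acta1 and Ckm, named in red, stand at the dense end with ratios of 1.48 and 1.45, and ENSRNOG00000058068 stands at 5.44; the 95th percentile enters both axes.

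The samples at the top did not differ by 1 common factor. The sample with title number 62901 and suffix 4 had 165.4 FPKM of Acta1, and that with number 63966 and suffix 4 had 245.97 FPKM, a ratio of 1.49. For Ckm the ratio was 1.76, for ENSRNOG00000018184 1.62, for ENSRNOG00000049695 3.51, and for ENSRNOG00000058068, with 10.1 and 93.2 FPKM, it was 9.26. The share of reads in the list was 4.78 times as high. Between the samples with numbers 62684 and 62901, both of suffix 4, Acta1 went from 108.96 to 165.4 FPKM, a ratio of 1.52, beside 1.64 for Ckm, 1.22 for ENSRNOG00000018184, 1.29 for ENSRNOG00000049695 and 3.77 for ENSRNOG00000058068. The order of the genes was thus not the same in both pairs. Each ratio compares 2 single samples. ENSRNOG00000018184 had a level in every sample, with a median of 39.9 FPKM. Acta1 and Ckm reached up to 1.09 and 0.829 reads per bp, and ENSRNOG00000058068 up to 0.412. How these levels and read densities enter the ratios was not tested.

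No relation between reads per sample and the level of Acta1 was detected. Reads ranged from 2139163 to 6248214 with a median of 4602134. Pearson's r between log2 reads and log2(FPKM + 1) of Acta1 was -0.0060 over all samples (two-sided permutation p = 0.902, adjusted p = 0.902 over 4 relations), with a Spearman's rho of 0.0081 (permutation p = 0.867) and an r of -0.0067 without the 2 samples farthest in depth. Within blocks 1, 2 and 3, r was 0.23, -0.024 and -0.073 (permutation p = 0.161, 0.719 and 0.380; rho 0.28, -0.040 and -0.034 with permutation p = 0.0895, 0.550 and 0.687). Without the 2 farthest samples, these r values were 0.056, -0.021 and -0.065.

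Samples with the same title number resembled each other in Acta1 and its closest genes. This comparison asked whether the levels went with the title number, and the choice of the list did not use the numbers. Title number 62901 stood on 3 samples, and their Acta1 values were 199.95, 165.4 and 179.4 FPKM. Other numbers were split: the samples with number 62684, among the pairs with the largest differences, had 0 and 108.96 FPKM. Of the 89 shared numbers, 20 had every sample in the upper mode of Acta1, 46 had none and 23 had both kinds. Among the pairs of samples with the same number, 27 had both samples in the upper mode, 24 had 1 and 54 had neither. Of all samples with a shared number, 36.02% were in it.

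The intraclass correlation of samples with the same number, called resemblance here, was 0.57 for Acta1 and 0.58 for Ckm, beside a median of 0.23 and a 95th percentile of 0.50 over all genes kept. The median over the list was 0.19, below that of all genes. Shuffling the samples with a shared number gave a one-sided permutation p of 1e-05 for each gene, the smallest that the 100000 permutations can give, and the same p with the shuffles kept within blocks or with ranks in place of log2 values. With ranks, the resemblance was 0.50 for Acta1 and 0.59 for Ckm. Within blocks, the resemblance of Acta1 was taken on the log2 scale with deviations from the mean of each block. It was then 0.51 in block 1 (9 pairs), 0.64 in block 2 (49 pairs) and 0.51 in block 3 (47 pairs). The difference between the blocks was not tested.

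With limma's F test over title numbers, Acta1 differed between numbers (adjusted p = 6.34e-08), and so did Ckm (adjusted p = 2.50e-08). Within block 2 the adjusted p of Acta1 was 8.58e-05 and within block 3 it was 0.00542 (limma). Within block 1 it was 0.255 (limma), where 0.229% of all genes passed and 0 of the list did. There, 41 list genes had an unadjusted p under 0.05 (limma), beside 2105 of all 16131 genes kept. In all samples, 50 list genes passed (49.5%), beside 57.5% of all genes, so that the share of the list was not above that of the table. In blocks 2 and 3, 31 and 15 list genes passed, beside 40.5% and 11.9% of all genes. The calls were uneven in the list. Acta1 and all 12 genes with an r above 0.9 passed, with resemblances of at least 0.43 and a median of 0.50. Of the other 88 genes 37 passed, with a median resemblance of 0.17. ENSRNOG00000049695 had a resemblance of 0.56, ENSRNOG00000018184 of 0.22 and ENSRNOG00000018462 of 0.38. The list genes were chosen to vary together, so these calls are not independent of each other.

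The call was lost with the precision weights of voom, a limma method that weights each value by its expected counting error. On the recovered reads it called 4 list genes and gave Acta1 an adjusted p of 0.760, while 58.2% of all genes passed. The same log2 CPM values (reads scaled to the library total) without those weights called 61 list genes, beside 58.6% of all genes, with an adjusted p of 2.12e-07 for Acta1 (limma). Weights for whole samples called 67, beside 67.9% of all genes, with an adjusted p of 6.94e-10 for Acta1 (limma array weights).

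**Figure D5:**
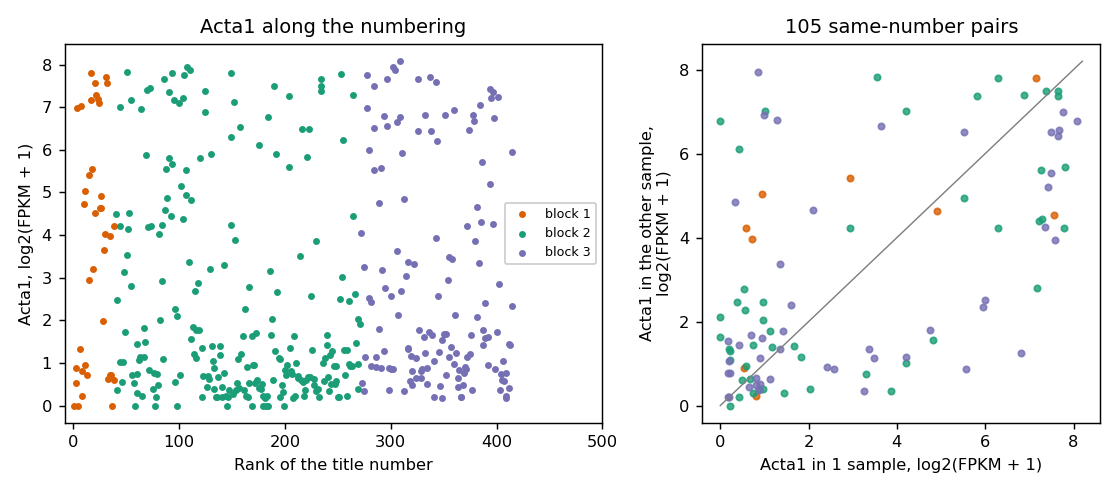
Left, log2(FPKM + 1) of Acta1 against the rank of the title number, 1 point for each sample coloured by block, and right, Acta1 in the samples of each same-number pair with the line of equality. High values occur along the whole numbering, more often in block 1, and pairs gather in the lower left and upper right corners with some far off the line.

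The 3 blocks of title numbers differed in Acta1. In block 1 it ran from 0 through a median of 15.3 to 220.8 FPKM, in block 2 from 0 through 1.26 to 245.5 FPKM and in block 3 from 0.129 through 2.31 to 269.3 FPKM. The ranges overlapped almost fully, and the difference lay in how many samples were high. The upper mode held 21 of 39 samples in block 1, or 53.8% (95% exact interval 37.2% to 69.9%), 60 samples of block 2, or 25.9% (20.4% to 32%), and 45 of block 3, or 31.3% (23.8% to 39.5%). On the log2(FPKM + 1) scale the means were 3.72 ± 2.76 (SD, n = 39), 2.39 ± 2.47 (SD) and 2.96 ± 2.53 (SD). The F test over blocks gave an adjusted p of 0.00921 for Acta1 and 0.0144 for Ckm (limma). This test took samples of the same title number as independent. With 1 sample per title number the adjusted p was 0.00966 for Acta1 and 0.0190 for Ckm (limma).

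Of the list, 25 genes differed between blocks (24.8%), beside 53% of all genes, a smaller share than in the table. Among Acta1 and the 12 closest genes 10 passed, and among the other 88 genes 15 did. This split is by r with Acta1, which the choice of the list used. Genes that follow Acta1 closely tend to repeat its call, so these counts are not independent results. With 1 sample per title number, 39 list genes passed, beside 48.2% of all genes. Without the 10 samples with the highest Acta1, 62 list genes passed, beside 52.6% of all genes. The labels do not say what the blocks are, so that a batch, a date or a group of animals cannot be told apart.

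Along the title numbers as a whole, a linear trend was rarely found in the list. Acta1 changed by -0.58 on the log2(FPKM + 1) scale from the lowest to the highest number (SE 0.43, limma adjusted p = 0.237), and Ckm by -0.77 (SE 0.41, adjusted p = 0.0930). Of the list 6 genes passed (5.94%), 5 downward and 1 upward, beside 61.3% of all genes, 31% upward and 30.2% downward. Slopes were negative in 81 of the listed genes, with a median of -0.16, beside a median of 0.0018 over all genes. Genes chosen to follow Acta1 tend to share the sign of its slope, so nothing is read from that count. The gene that rose was ENSRNOG00000018462, by 0.12 (SE 0.05, limma adjusted p = 0.0258). These fits took samples of the same title number as independent. With 1 sample per title number Acta1 changed by -0.36 (SE 0.50, limma adjusted p = 0.553). In that fit 3 list genes passed, beside 56.3% of all genes.

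A course free to bend was called more often. A natural spline with 5 degrees of freedom called 42 list genes, beside 75.1% of all genes, with an adjusted p of 0.000378 for Acta1 (limma). Within block 2 Acta1 fell by 1.74 from the first to the last number (SE 0.55, limma adjusted p = 0.00396), and 29 list genes passed, 28 of them downward, beside 56.6% of all genes. Within block 3 it changed by -1.16 (SE 0.72, limma adjusted p = 0.329), and 1 list gene passed, beside 6.53% of all genes. Within block 1 it changed by 0.93 (SE 1.44, limma adjusted p = 0.812), and 0 list genes passed, with 0 at an unadjusted p under 0.05; 0% of all genes passed, with 1526 genes at an unadjusted p under 0.05 (limma). The spline and the slopes within blocks took samples of the same title number as independent. They were not refitted with 1 sample per number, so their p-values may be too small. The difference between the slopes of the blocks was not tested.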

How the data were processed

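Per the labels' protocols, adipose RNA was read from 1 end for 75 bp. The submitters' processing notes name STAR, Picard, featureCounts and DESeq2 without versions or roles; the genome build and annotation are not given in the sources used here. The authors deposited 1 table of FPKM values, in which reads were divided by gene length and by 1 factor per sample before deposit. The header names no unit: this was read from the deposited values, since whole reads (tolerance 0.001) and whole gene lengths (49 to 29464 bp) were recovered for 100% of genes, and the factors equal median-of-ratios size factors times the geometric mean of the totals. The table held 415 samples, in blocks of 39, 232 and 144, and 186 of them shared a title number, giving 105 pairs.

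Acta1 and the 100 genes of highest r made a list of 101. Trend, block and same-number differences were fitted with limma 3.58.1 (R 4.3.3) on log2(FPKM + 1) of all 16131 genes kept, with Benjamini-Hochberg adjustment over them and a threshold of 0.05. A slope runs from the lowest to the highest rank of the title number. Resemblance was the mean product of both samples' deviations over pairs, relative to the mean squared deviation. Deviations were from the mean of all samples, and from block means for the values within blocks. The labels do not say that samples are separate animals, so p-values measure only the spread between these samples. Tested on simulated data of 16131 genes with 200 changed, the tests recovered 100% (trend), 99.5% (blocks) and 100% (same number). Of the unchanged genes, 8, 10 and 6 were called. The changes put in were 1.2 SD for the trend, a shift of block 1 by 1 SD, and 60% of variance between numbers. Recovery of smaller changes was not tested. For genes with a low and a high mode, or genes that move together as in the list, recovery was not tested. The number of unchanged genes called among such genes was not tested either. Other steps used Python 3.11.15 with numpy 2.4.6, pandas 2.3.3, scipy 1.17.1 and matplotlib 3.10.9.

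The members, lists and tests were chosen with earlier results of these data known. The rule for named genes took Acta1, Ckm and the list genes with the highest and lowest r, mean and spread; without gene names, only 4 more identifiers are printed, picked after their values were seen. Counts over 23 lists of gene symbols were planned and not run, since 0 identifiers matched a symbol. Alternatives were other filters, pseudocounts, scalings, weights, covariates and subsets of samples. Chosen after seeing the data were voom on the recovered reads, log2 CPM without weights, same-number tests within blocks, the block test without the 10 samples of highest Acta1 or with 1 sample per title number, and leaving out the sample with the largest share of reads in the list.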

Additional observations from a re-analysis of the deposited data

How the results depend on the processing

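Of 65 values of the main results under alternatives, 36 stayed close to the reported value and 29 moved. The rule gave 65 of the genes without a filter and 42 with a filter at 80% of samples (Acta1 itself fails that filter and was kept as the anchor), because the filter sets which genes can enter; under the other settings it gave at least 80. Median pairwise r was 0.77 with a pseudocount of 0.1 and 0.47 with Spearman's rho. The share of samples in the upper mode was 43.4% with a variance for each mode, 14.5% as Acta1 above 100 FPKM, 10.6% from the list's mean and 56.4% when fitted within block 1.

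In this paragraph, brackets hold the share of all genes that passed in the same setting. Along the title numbers, 6 list genes passed (61.3%). With a pseudocount of 0.1, 10 passed (61.2%), with quantile normalization 12 (59.8%) and with array weights 3 (51.5%). With 1 sample per title number 3 passed (56.3%), and with the filter at 80% 3 of 41 (65.7%). With voom 14 passed (58.4%), with unweighted log2 CPM 12 (60.9%) and with the spline 42 (75.1%). Within blocks 1, 2 and 3, 0 (0%), 29 (56.6%) and 1 (6.53%) passed. Within block 1 the slopes turned positive, 10.3 for Acta1 and 6.95 for Ckm on the log2 scale per full range of the ranks, neither passing (limma adjusted p = 0.812 and 0.876). Between blocks, 25 list genes passed (53%), against 9 of 41 with the filter at 80% (57.7%) and 16 with log2 reads as covariate (41.7%). With 1 sample per title number 39 passed (48.2%), and without the 10 samples with the highest Acta1 62 (52.6%). With voom 46 passed (50.9%). Between title numbers, 50 list genes passed (57.5%), against 20 of 41 with the filter at 80% (63.8%) and 4 with voom (58.2%). Within blocks 1, 2 and 3 the counts were 0 (0.229%), 31 (40.5%) and 15 (11.9%). The smaller counts with the filter at 80% follow from fewer list genes tested; for the others the cause was not tested, except that unweighted log2 CPM gave 61 genes between title numbers where voom gave 4. A median of 15 reads per sample in the median list gene limits how well low levels are known. No paired analysis was possible because the labels form 1 group.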
